A study of Daphnia magna with 24 samples.

Results

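Little Grizzly Creek water and upstream water, both collected at Walker Mine, were compared by what each did to gene expression in Daphnia magna, a small freshwater crustacean widely used in toxicity testing. The comparison rests on 12 of the 24 arrays of the series, 6 per water, chosen by the site in their titles. Each water had 3 exposures, and each exposure was read on 2 arrays with the dyes exchanged. Each array paired exposed animals with unexposed ones held in COMBO, a defined laboratory medium, so the value of a feature is a log ratio of exposed over control. All animals were adult females 14 to 16 days old from a genetically homogeneous culture, exposed for 24 h at 23.5 °C, and 10 to 15 of them were pooled for an exposure. The labels give 1 collection for each water, so the 3 exposures of a site repeat the exposure and not the sampling of the stream. Arrays of portal and tailings water, the other 12 of the series, entered the shared estimate of spread, the filter on blanks and a later side comparison.

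Daphnia filters its food from the water, and dissolved metals reach it through the gills and with that food. Copper is a cofactor of respiratory and antioxidant enzymes, and in excess it disturbs sodium uptake and generates reactive oxygen species. Metal-binding proteins such as metallothioneins, digestive enzymes and cuticle proteins are among the genes whose transcripts are often followed in metal-exposed Daphnia. The study's design text says that the sites carried different amounts of copper and gives no concentrations, so no dose is attached to either water here. The features on the arrays carry identifiers such as P11CC4 that the files do not pair with genes, and none of the 7680 matched the RefSeq gene table of 28335 genes. Results are therefore given for features, with no gene name or function.

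The 12 arrays held between 5891 and 7548 values. The 2 arrays of an exposure correlated between 0.714 and 0.91 across features. Array SDs ran from 0.297, on an array of the second upstream exposure, to 0.875, on an array of the third Little Grizzly Creek exposure, which also had the most blanks (19.5% of tested features without a value). Exposures of Little Grizzly Creek water correlated with each other from 0.184 to 0.644, and those of upstream water from -0.245 to 0.555. A Cy5 array of upstream exposure 3 correlated at -0.353 with one of upstream exposure 2 and at -0.319 with one of Little Grizzly Creek exposure 2, so the sign of these exposures is not fully settled. The direction exposed over control is likely from the labels but not stated, and with control over exposed each sign would turn. The base of the logarithm is not stated either and was read as 2. Values below are log2 ratios against control, or differences between such ratios where so named.

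Of 6504 features with enough values, 132 differed between the waters at an adjusted p under 0.05 (2.03% of those tested; limma, Benjamini-Hochberg). The log ratio was higher in Little Grizzly Creek water for 99 (1.52% of those tested) and lower for 33 (0.507%). At an unadjusted p under 0.05 limma gave 1075. The differences were large for many of these features: the median was 1.37 log2 units among the higher and -1.75 among the lower, and 80 of the 132 differed by at least 1 unit. Over all tested features the median absolute difference was 0.191. A value in all 6 exposures was available for 103 of the 132, and in each of the 103 the 3 exposures of one water lay above the 3 of the other, as they did for 27.9% of the 4701 tested features with 6 values. The difference had the same direction on the arrays with exposed animals in Cy5 alone and in Cy3 alone for all 132, with medians of 1.48 and 1.39 for the higher and -1.59 and -1.76 for the lower features. Both orientations entered the call, so this describes the members and is no separate test.

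Most of these differences lay with Little Grizzly Creek water. Tested against 0, that is against control, 109 of the 132 passed in Little Grizzly Creek water and not in upstream water, 5 passed in upstream water and not in Little Grizzly Creek water, and 18 passed in neither (limma, adjusted p under 0.05). None passed in both, although 25 had an unadjusted p under 0.05 at both sites by limma. The adjustment was made for each site apart, so passing upstream took a smaller unadjusted p. A3E2 missed upstream at 0.000163 and P8AH2 passed in the creek at 0.00168 (unadjusted p by limma; both named after their values were seen). At an unadjusted p under 0.05 by limma, 115 of the 132 passed in Little Grizzly Creek water and 42 in upstream water. Among all tested features, 4.06% passed against control in Little Grizzly Creek water and 0.0769%, the same 5 features, in upstream water. Over all tested features the order at an unadjusted p under 0.05 by limma was the opposite, with 11.8% in Little Grizzly Creek water and 16.7% in upstream water. A feature that differs must depart from 0 somewhere, so the split between the sites, not the departure itself, is what the counts describe. Of the 99 higher features, 80 rose against control in Little Grizzly Creek water, 5 fell in upstream water and 14 passed at neither site. Of the 33 lower features, 29 fell in Little Grizzly Creek water and 4 passed at neither site.

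**Figure D1:**
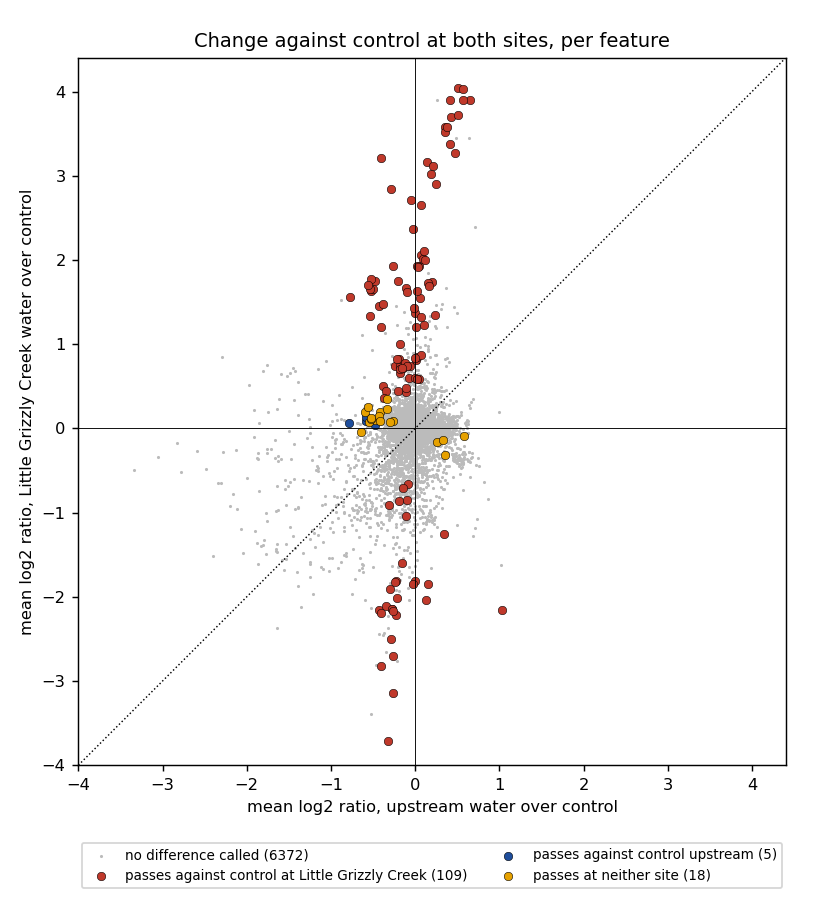
Mean log2 ratio against control in upstream water (horizontal axis) and Little Grizzly Creek water (vertical axis) for each of 6504 tested features; the dotted line marks equal ratios. The 109 red features that pass against control in Little Grizzly Creek water mostly run along the vertical axis, and the 5 blue and 18 yellow ones lie close to the horizontal axis, all within 1 unit of 0.

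The mean of the 2 sites gave a further test of which site lay farther from control, because its error is uncorrelated with that of the difference where both sites have 3 values and share no control RNA, a point on which the labels are silent. It passed for 3.12% of all tested features (limma). For 87 of the 132 it lay on the side that places Little Grizzly Creek farther from 0, 60 of them higher and 27 lower. For 4, all higher, it lay on the side of upstream water, and for 41 it did not pass. The 4 were P4DB6, P5CG5, P8AE9 and P11DD5, named after their values were seen. Without a test, the Little Grizzly Creek mean was the one farther from 0 in 109 of the 132, and in 43.5% of all tested features.

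The upstream share of this split depended on how unequal array spreads were treated. With the arrays quantile normalised, 164 features differed, of which 103 passed against control in Little Grizzly Creek water and 53 in upstream water. With each array scaled to one median absolute deviation, 225 differed, 151 passing in Little Grizzly Creek water and 65 in upstream water. Of the 18 features that passed at neither site, 14 then passed in upstream water after quantile normalisation and 16 after scaling, and none in Little Grizzly Creek water. The difference between the waters itself was kept after quantile normalisation by 7 of these 18, by 1 of the 5 and by 77 of the 109, and after scaling by all 18, all 5 and 99. Of the 109, 99 passed in Little Grizzly Creek water after quantile normalisation and 108 after scaling, with 4 and 3 passing upstream as well. Array weights are another kind of alternative, which weights each exposure by how closely it follows its site means and not by its spread. With them 952 features differed, 381 passing in Little Grizzly Creek water and 395 in upstream water. Under that setting the creek no longer held the larger part by passing against control. By the mean of both sites it did, with Little Grizzly Creek farther from control in 241 features and upstream water in 114. That test did not resolve the side for the rest.

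The 80 higher features that rose in Little Grizzly Creek water had a median log ratio of 1.66, 1.49 and 1.46 in its exposures 1, 2 and 3. Upstream, their medians were -0.039, -0.133 and -0.0183. Their Little Grizzly Creek means ranged from 0.365 to 4.04. For 69 of the 80 the 95% interval of the upstream mean held 0, and the upstream mean had the opposite sign in 42. The largest differences without blanks at either site belonged to P10DH11 and P9CF4. P10DH11 stood at 3.75, 3.88 and 4.49 in the Little Grizzly Creek exposures and at 0.699, -0.265 and 1.08 in the upstream exposures. All 3 creek exposures were far above the upstream ones, which themselves fell on both sides of 0. The difference was 3.53 (SE 0.635, adjusted p = 0.0285 by limma), with an upstream mean of 0.506 and a 95% interval from -0.515 to 1.53. P9CF4 stood at 3.58, 3.71 and 4.42 against 0.691, -0.223 and 0.779, a difference of 3.49 (SE 0.587, adjusted p = 0.023 by limma). Its exposures showed the same order as those of P10DH11, with upstream exposure 2 the only one below 0. With 5 of the 6 exposures neither difference passed, whichever was omitted, with adjusted p-values up to 0.0993 for P10DH11 and 0.0921 for P9CF4. P10DH11 also missed the threshold after quantile normalisation (adjusted p = 0.0506 by limma).

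P10DH11 and P9CF4 belonged to a group of features that moved almost as one. Across the exposures with values, 22 of the other 131 differing features correlated with P10DH11 at 0.95 or more, as did 26 of all tested features. Their identifiers came from 14 of the 20 numbered sets. These 22 had Little Grizzly Creek means from 1.47 to 4.04. Upstream, they ranged from -0.173 to 1.10 in exposure 1, from -0.583 to 0.0602 in exposure 2 and from 0.00318 to 1.18 in exposure 3. Whether such features are copies of one transcript cannot be told from the identifiers, and if they are, the 132 count fewer genes than features. The correlations describe 11 exposures that share sites and exposure numbers.

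The higher features that passed most widely had smaller differences than P10DH11 and P9CF4. They were picked by that passing, so their stability is no separate result. Whether they form a group set apart from the one above was not tested. Among the 132, 5 named after their values were seen passed under 22 processing alternatives, those that leave out an exposure included, but not with Little Grizzly Creek exposure 2 turned in sign, where no feature passed. They were P8BG4, P13AD1, A2A14, A2A15 and P5BE5. A4G2, also named after its values were seen, had the largest difference of the higher features, 3.62 (SE 0.285, adjusted p = 0.001 by limma). It passed in all 6 fits that leave out an exposure and in 21 of the 22 alternatives. Blanks in creek exposure 3 and portal exposure 3 kept it out of the fit with values in all 12 exposures. P8BG4 stood at 1.96, 1.62 and 1.51 in the Little Grizzly Creek exposures and at -0.44, -0.539 and -0.695 in the upstream exposures, a difference of 2.26 (SE 0.202, adjusted p = 0.000946 by limma). The 2 waters lay on opposite sides of control, with 1.70 ± 0.235 against -0.558 ± 0.129 (SD, n = 3 each; upstream adjusted p = 0.116 against control by limma). P13AD1 had a mean of 1.65 ± 0.28 in Little Grizzly Creek water and -0.542 ± 0.226 in upstream water (SD, n = 3 each). A2A14 had means of 1.63 and -0.525, and A2A15 of 1.65 and -0.495. These 4 features, from 3 identifier sets, were above control in each creek exposure and below it in each upstream exposure. In upstream exposures 1 and 3 each of them lay below the range of the 22 differing features that correlated with P10DH11. P5BE5 differed from them in its upstream values, which were 0.269, 0.00719 and 0.213, all at or above control, against 1.66, 1.66 and 1.76 in Little Grizzly Creek water.

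The 29 lower features that fell in Little Grizzly Creek water had medians of -1.97, -2.15 and -1.53 in its exposures. Upstream, their medians were -0.169, -0.344 and -0.0774. The upstream mean had the opposite sign in 4 of the 29. None of the 29 passed upstream by limma, and the 95% interval of the upstream mean held 0 in 21. P11CC4 stood at -2.92, -3.07 and -2.47 in Little Grizzly Creek water and at -0.386, -0.559 and -0.265 upstream. Every exposure of both waters was below control, and the waters did not overlap. The difference was -2.42 (SE 0.234, adjusted p = 0.000946 by limma), and the upstream mean of -0.403 had a 95% interval from -0.773 to -0.0336. P11DG2 stood at -2.42, -2.66 and -2.41 against -0.137, -0.506 and -0.234, a difference of -2.21 (SE 0.211, adjusted p = 0.000946 by limma). Its 6 exposures were likewise all below control, with the creek exposures far below the upstream ones. Both features passed without any 1 of the 6 exposures, with adjusted p-values up to 0.00854. Neither passed after quantile normalisation, with differences of -2.23 and -1.94 (adjusted p = 0.111 and 0.113 by limma). Blanks were common among the lower features: 15 of 33 had no value in Little Grizzly Creek exposure 3, against 8 of the 99 higher features and 19.5% of all tested.

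**Figure D2:**
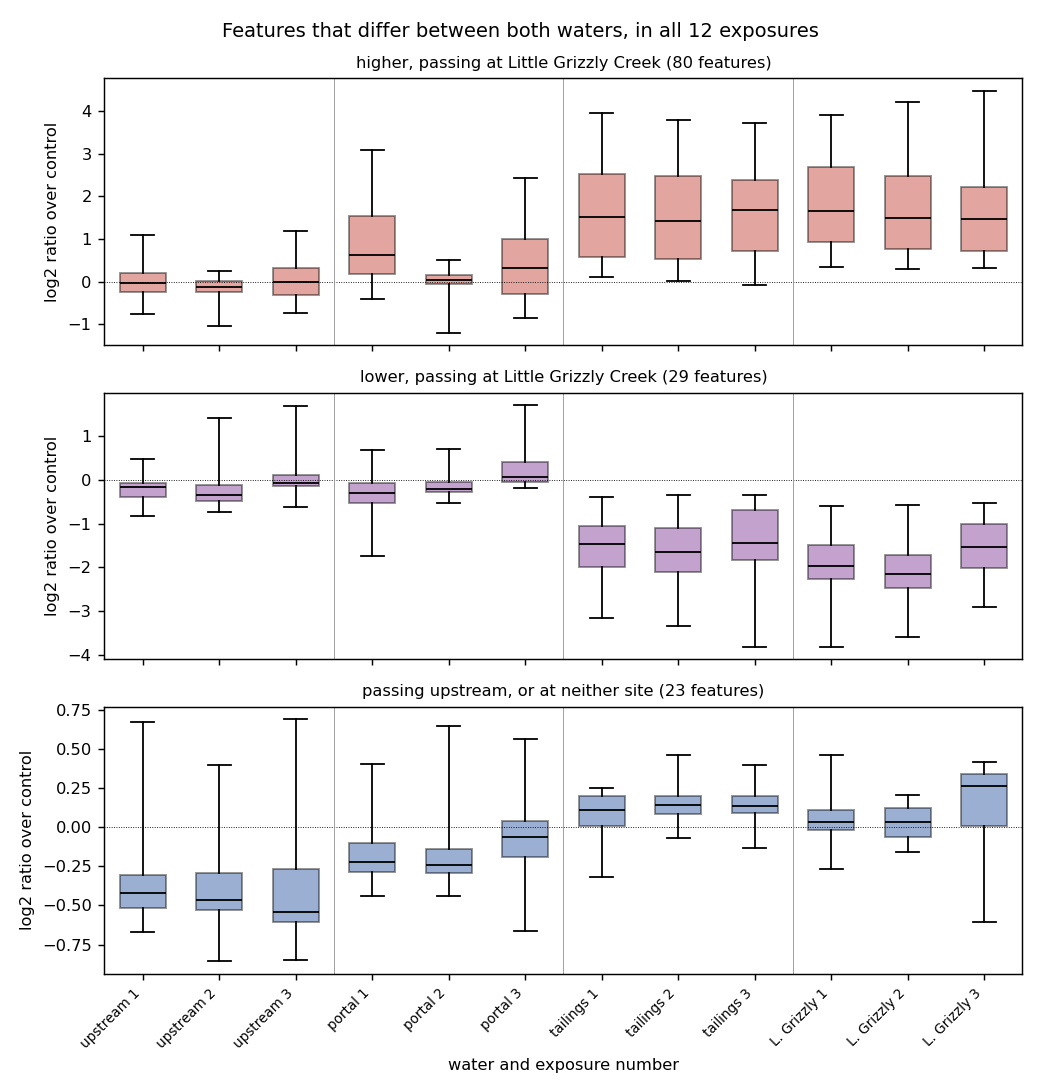
Log2 ratios against control of the differing features in each of the 12 exposures, as boxes (quartiles and median) with whiskers to the lowest and highest feature. Top, the 80 higher features that rose in Little Grizzly Creek water; middle, the 29 lower ones that fell there; bottom, on a narrower axis, the 23 that passed upstream or at neither site, whose upstream medians all lie below 0.

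In 5 features it was upstream water that departed from control, and in all 5 by a fall. P4DB6 had the largest of these differences. It stood at -0.669, -0.858 and -0.847 upstream and at 0.139, 0.162 and -0.093 in Little Grizzly Creek water. All upstream exposures were well below control, and the creek exposures fell on both sides of it. The upstream mean was -0.791 ± 0.106 (SD, n = 3; adjusted p = 0.014 by limma), the creek mean 0.0692 with a 95% interval from -0.11 to 0.248, and the difference 0.861 (SE 0.113, adjusted p = 0.00658 by limma). The difference passed without any 1 of the 6 exposures, with adjusted p-values from 0.00766 to 0.0476. Quantile normalisation ended the call (1.41, adjusted p = 0.0705 by limma), and it was 0.289 and 0.296 with upstream exposure 2 or 3 turned in sign (adjusted p = 0.94 and 1 by limma).

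The other 4 had upstream means between -0.589 and -0.475. P5CG5 read -0.6, -0.506 and -0.66 upstream and -0.0229, -0.0607 and 0.342 in Little Grizzly Creek water. P8AC1 read -0.515, -0.49 and -0.582 upstream and 0.0358, -0.042 and 0.33 in the creek. In both features the third creek exposure was the only one clearly above control. P8AE9 was at -0.419, -0.523 and -0.485 upstream and between 0.004 and 0.0831 in the creek. P8AG5 was at -0.614, -0.516 and -0.608 upstream, with 2 creek values, 0.0136 and 0.266, and a blank. Their differences ran from 0.52 to 0.719, with adjusted p-values from 0.01 to 0.019 by limma. P8AG5 passed in 4 of the 6 fits that leave out an exposure, P5CG5 and P8AC1 in 2 each and P8AE9 in 1. No differing feature passed against control in upstream water by limma without upstream exposure 1, 2 or 3, or when only the 6 exposures of both waters were fitted. At an unadjusted p under 0.05 the differing features that passed upstream numbered 15, 16, 12 and 24 in these 4 fits.

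The 18 features that passed at neither site resembled these 5 in size. All 18 had an unadjusted p under 0.05 against control in upstream water, where 16.7% of all tested features did, and 6 of them in Little Grizzly Creek water, where 11.8% did. Their adjusted p upstream ran from 0.0555 to 0.132, and in 17 the upstream mean was the one farther from 0. The 14 higher ones had upstream medians of -0.436, -0.432 and -0.547 and creek medians of 0.0788, 0.0712 and 0.319. The 4 lower ones showed the opposite order, with upstream medians of 0.328, 0.316 and 0.375 and creek medians of -0.159, -0.124 and -0.167. In these 23 features together the difference between the waters was between 0.36 and 0.861 log2 units, under 1 unit in each.

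**Figure D3:**
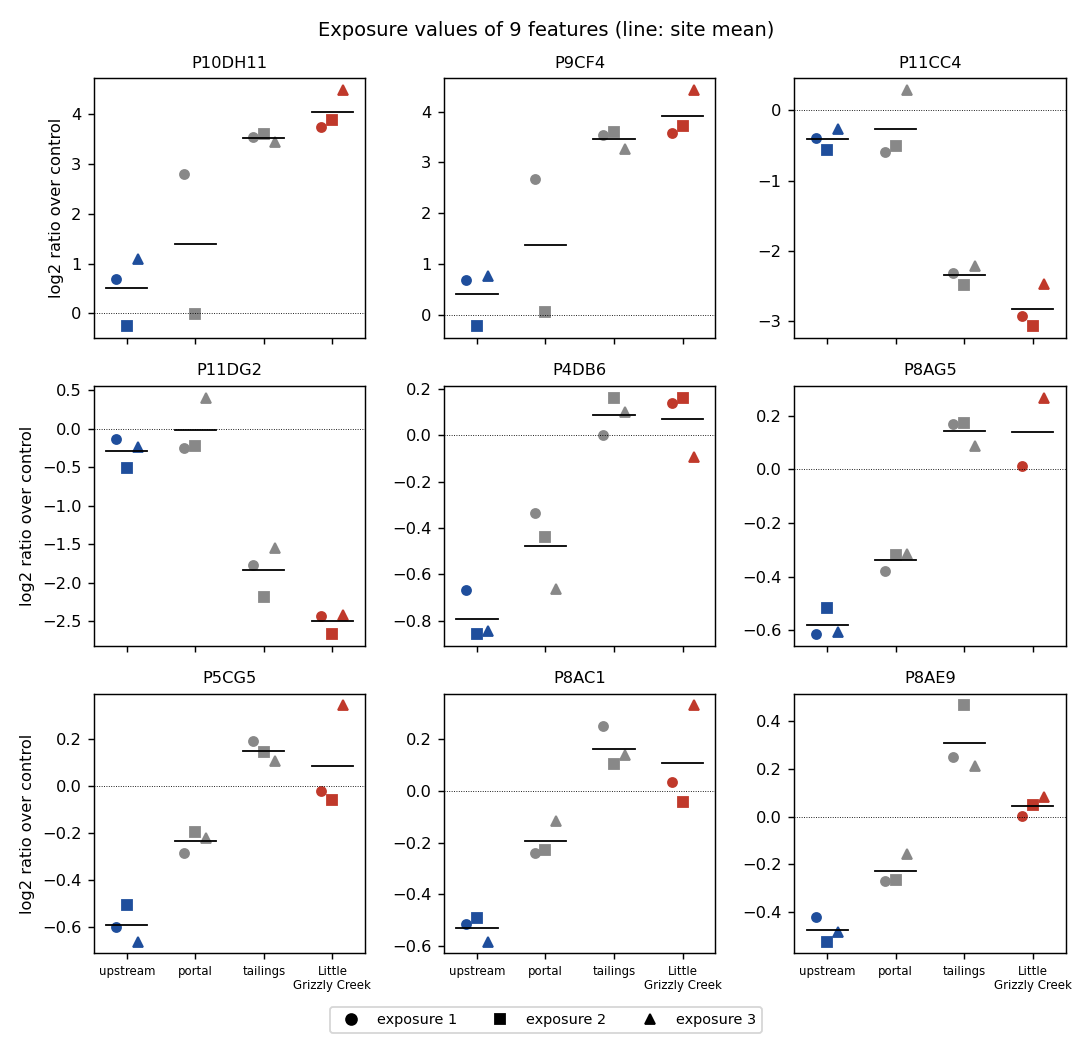
Log2 ratios against control of 9 features in each exposure of the 4 waters, with a line at each site's mean; the vertical axes differ between panels and missing symbols are blanks. P10DH11, P9CF4, P11CC4 and P11DG2 depart from 0 in Little Grizzly Creek and tailings water. P10DH11 and P9CF4 are also high in portal exposure 1, at 2.81 and 2.67. P4DB6, P8AG5, P5CG5, P8AC1 and P8AE9 depart from 0 in upstream water, and they lie below 0 in each portal exposure and above 0 in each tailings exposure. For the latter 5 the portal mean lies between the upstream and tailings means.

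Large upstream means rarely kept one sign over the 3 exposures. The upstream mean was at least 1 unit from 0 in 136 tested features (2.09%), below control in 134 of them, and reached -3.34. Only 1 of the 136 differed between the waters: A6F16, named after its values were seen, with an upstream mean of 1.03 and a Little Grizzly Creek mean of -2.16 over 2 exposures. Their medians were -2.27 in upstream exposure 1, 0.564 in exposure 2 and -2.46 in exposure 3, and of the 104 with 3 values 17 kept one sign. The median SD among the upstream exposures was 1.59 in these features. In Little Grizzly Creek water 326 features (5.01%) had a mean at least 1 unit from 0, 235 of them below control, with medians of -1.06, 0.0777 and -0.898 in its exposures. At both sites exposure 2 thus stood apart from the other two in these features. Of the 326, 78 differed between the waters, and 182 of 258 with 3 values kept one sign, with a median SD of 0.687. The median SE of the difference was 1.08 in the 136 features and 0.506 in the 326, so a difference of a given size passed less easily in the first set.

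A change in Little Grizzly Creek water did not always come with a difference from upstream water. Against control 264 features passed in Little Grizzly Creek water, 141 that rose (2.17% of those tested) and 123 that fell (1.89%), and 155 of the 264 did not pass the direct comparison. Of these, the 61 that rose had a median creek mean of 0.844 and a median upstream mean of 0.0866, and the upstream mean was above 0 in 40. Among the 94 that fell these medians were -1.11 and -0.235, and the upstream mean was below 0 in 83. The 80 that rose and differed had medians of 1.63 and -0.00087, and the 29 that fell and differed -2.01 and -0.232. For the features that fell, upstream medians were thus close in both sets, and the creek fall was smaller where no difference was called. A miss in the direct comparison does not show that the waters act alike on these features. The comparisons share the creek exposures.

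Portal and tailings exposures entered the shared spread and the filter on blanks but not the difference between the waters. For 131 of the 132 features the difference between tailings and portal water had the direction of the difference between Little Grizzly Creek and upstream water. The exception was P4BF11, named after its values were seen, which was higher in Little Grizzly Creek water (0.875 ± 0.197) than upstream (0.0726 ± 0.0226; SD, n = 3 each), with a tailings minus portal difference of -0.049. Over the 99 higher features the median tailings minus portal difference was 1.02, over the 33 lower ones -1.33, and over all tested features 0.00725. It passed for 42 of the higher and 19 of the lower features, where 3.38% of all tested features passed in the first direction and 0.615% in the second (4% in all; limma). Both differences were tested with the same estimate of spread for a feature, so these calls are not independent of the calls between the waters. Of the 81 differing features with all 6 values, tailings and portal exposures did not overlap in 75, and in 26.6% of all tested features with 6 values. Without tailings exposure 1 or 2 the number passing fell from 61 to 34 or 38. Control RNA may have been shared between sites, and same-numbered exposures may share other steps. Their part in this likeness was not tested.

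The 5 upstream-departing features placed portal water between the other waters. Their median was -0.284, -0.266 and -0.221 in the portal exposures and 0.189, 0.163 and 0.105 in the tailings exposures, against -0.6, -0.516 and -0.608 upstream. The 80 features that rose in Little Grizzly Creek water had medians of 1.52, 1.43 and 1.68 in the tailings exposures. In portal water their medians were 0.623, 0.0305 and 0.318, so the first portal exposure was high and the second near control. Tailings medians of the 29 that fell were -1.47, -1.65 and -1.45, against -0.31, -0.205 and 0.0717 in portal water.

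Differing features were unevenly spread over the identifiers. These form 20 numbered sets of 384, 7 beginning with A and 13 with P, whose meaning the files and labels do not give. The share that differed was close in both families, 1.97% of 1826 tested A features and 2.05% of 4678 P features. The direction was not: 23 of the 36 A features were lower in Little Grizzly Creek water, and 86 of the 96 P features were higher. The lower A features came mainly from set A6, and in the other 6 A sets 10 features were higher and 6 lower. Set A6 held 17 of the 33 lower features, with 6.15% of its 325 tested features differing. Their medians were -2.08, -2.17 and -1.55 in the Little Grizzly Creek exposures and -0.153, -0.436 and -0.0575 upstream. Set P8 held 21 of the 99 higher features, with 6.28% of its 366 tested features differing, and 3 of the 5 upstream-departing ones. The sets also differed as wholes: the median difference over all tested features of a set was below 0 in all 7 A sets (-0.156 to -0.0476) and between -0.0287 and 0.0809 in the P sets. With each array centred within each set, an alternative chosen after seeing the data, 120 features differed, 93 higher and 27 lower, and 107 of them were among the 132.

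**Figure D4:**
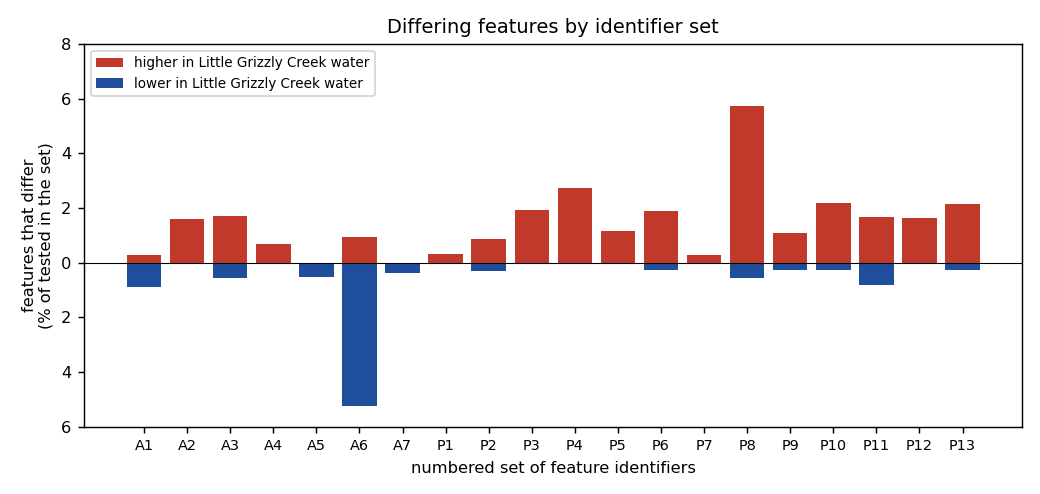
Share of the tested features in each of 20 numbered identifier sets that were higher (bars upward) or lower (bars downward) in Little Grizzly Creek than in upstream water. The lower features concentrate in set A6, and the higher ones are most frequent in set P8.

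The number of differing features rested on each exposure. Omitting upstream exposures 1, 2 or 3 left 35, 34 or 31. Omitting creek exposures 1, 2 or 3 left 24, 57 or 104. Of the 132, 22 passed in all 6 of these fits, 16 higher and 6 lower, and 31 passed in none. Of the 22, 21 passed against control in Little Grizzly Creek water and 1, P4DB6, in upstream water. The 22 differed by 0.841 to 3.62 log2 units, with a median of 1.88, against a median of 1.23 for the other 110. Little Grizzly Creek remained the site that departed in most features of each of the 6 fits, with shares from 80.7% to 96.8%. Because of the negative correlations above, single exposures were also turned in sign. With upstream exposure 2 or 3 turned, 102 or 81 features differed. With Little Grizzly Creek exposure 2 turned, an alternative chosen after seeing the data, 0 features differed by limma, and 657 had an unadjusted p under 0.05. Before turning, the creek exposures correlated with each other from 0.184 to 0.644. Turning exposure 2 sets it against the other creek exposures, so the 0 does not tell which sign is right.

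**Figure D5:**
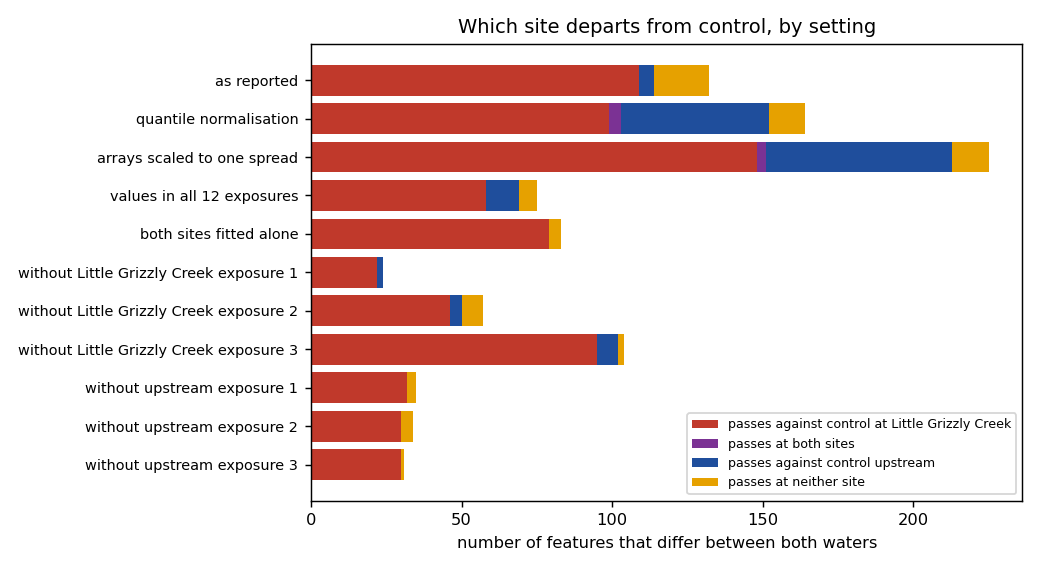
Number of features that differ between the 2 waters under each setting, split by the site at which they pass against control, for 11 of the settings run (array weights, with 381 passing in the creek and 395 upstream, are not drawn). Little Grizzly Creek makes up the largest part of each of the 11 bars, from 30 of 31 features without upstream exposure 3 to 103 of 164 after quantile normalisation. Upstream water rises to 53 features after quantile normalisation and 65 after scaling. The counts in this caption include features that pass at both sites, 4 after quantile normalisation and 3 after scaling, which are drawn as a part of their own.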

How the data were processed

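The authors deposited 1 table of log2 ratios (the base is not stated and was read as 2), covering 7680 features and 24 dye-paired arrays of RNA from whole daphnids. Scanning, background correction, normalisation and filtering are not given in the sources used here, and depth does not apply: the number of arrays limits the precision. Array medians of the 12 arrays lay between -0.0189 and 0.00993, so values were already centred, and blanks were taken as left out by the authors. Both arrays of an exposure were averaged, and a feature needed at least 2 exposure values at every site. limma 3.58.1 in R 4.3.3 fitted 1 mean per site to all 12 exposures, with 4 sites sharing one spread. Tested were Little Grizzly Creek minus upstream, the mean of both, each site against 0, and tailings minus portal, with Benjamini-Hochberg adjustment over the 6504 tested features and a threshold of 0.05. The tests against 0 leave out the controls' spread if control RNA was shared. The labels call exposures biological replicates.

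Named are the 2 highest and 2 lowest differences with no blank and no overlap between the waters, and every feature of a class with 5 or fewer. Members and tests were chosen with earlier results of these data known. The fit was tested on simulated data. Alternatives changed the normalisation, blanks, averaging, weights, block, signs and the exposures used. For exposure numbers 1, 2 and 3 the deviations of same-numbered exposures correlated at -0.0349, 0.59 and 0.638. As number 1 showed no such correlation, the main fit did not pair the sites by number. Whether numbers 2 and 3 mark a shared step was not tested, and fits with the number as a block changed the counts.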

Additional observations from a re-analysis of the deposited data

Results flagged for a closer look

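The change against control differed between Little Grizzly Creek and upstream water by a direct test in 132 features. Among the features named by rule, the difference between the sites was 3.53 log2 units for P10DH11, 3.49 for P9CF4, -2.42 for P11CC4 and -2.21 for P11DG2, where Little Grizzly Creek departed from control. It was 0.861 for P4DB6, 0.719 for P8AG5, 0.675 for P5CG5, 0.637 for P8AC1 and 0.52 for P8AE9, where only upstream water passed against control. The mean of both sites did not resolve the side for P8AG5 and P8AC1 (adjusted p = 0.0502 and 0.0672 by limma). No differing feature passed upstream once any upstream exposure was left out. Groups of 3 exposures are too small for a test of single outlying exposures.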

How the results depend on the processing

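The counts followed were: features that differ (132), those with Little Grizzly Creek farther from 0 by the mean of both sites (87), and those passing against control in Little Grizzly Creek (109) and upstream water (5). They were, in this order, 75, 47, 58 and 11 with values in all 12 exposures, 55, 42, 53 and 0 on the first arrays alone, 234, 153, 196 and 32 when all 24 arrays and a term for dye were fitted (62.4% higher), and 952, 241, 381 and 395 with array weights (52.1% higher, against 75% as reported). With the exposure number as a replicate block they were 219, 152, 181 and 50 in the fit of 12 exposures, 49, 46, 49 and 0 with both waters alone, and 241, 79, 168 and 2 as a random effect. Whether the numbers pair these sites is not settled, since same-numbered exposures deviated together for numbers 2 and 3 but not for number 1. Only some of the 4 moved by over 1.5 times elsewhere: scaling to one median absolute deviation gave 225 differing and 65 upstream, quantile normalisation 53 upstream, 1 array in place of both 1 upstream, both waters fitted alone 83 differing and 0 upstream, upstream exposure 2 turned 0 upstream, and upstream exposure 3 turned 81 differing and 0 upstream. Of the alternatives chosen after seeing the data, Little Grizzly Creek exposure 2 turned gave 0 for all 4 by limma (657 differing at an unadjusted p under 0.05), and leaving out portal exposure 3 and creek exposure 3 gave 35 upstream, with 163 differing. Leaving out single exposures gave 24 to 104 differing, 15 to 75 with Little Grizzly Creek farther, 22 to 95 passing there and 0 to 7 upstream. The features passing between tailings and portal water (61) numbered 34 to 66 without single exposures of those waters. No named feature changed direction where it had a value (P10DH11, P9CF4 and P8AG5 have blanks and none with all 12 exposures), but with creek exposure 2 turned the differences of P10DH11, P9CF4, P11CC4 and P11DG2 shrank to 0.945, 1.01, -0.369 and -0.431 (adjusted p = 0.935, 0.927, 0.961 and 0.952 by limma). The cause of these shifts was not tested, apart from fewer values or exposures where these were left out. Brightness over background is unknown, since the table holds ratios alone.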
